A study of Mus musculus with 4 samples.

Results

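The 40 genes described here act in the G2 phase and in mitosis, when a cell that has copied its chromosomes prepares to divide and then divides. They were found by matching their symbols to the gene names of the deposited matrices, where they are 40 of 27998 genes. The matching used no measured value, but the list itself was chosen with earlier results of these data known. They were followed in bone marrow cells sorted as LSK cells (free of lineage markers, positive for Sca1 and cKit), the fraction that holds hematopoietic stem cells and multipotent progenitors, with droplet-based 3′ single-cell RNA sequencing, in which each unique molecular identifier (UMI) stands for 1 captured RNA molecule. Control libraries came from adult Nup358 fl/fl mice, labelled wild-type, and knockout libraries from adult Nup358 fl/fl mice that also carried R26-CreERT2, a Cre recombinase made in all tissues and activated by tamoxifen. Nup358 is a protein of the cytoplasmic face of the nuclear pore, and in these mice its gene was removed outside the blood system as well. Each genotype had 2 libraries, each pooled from the marrow of 3 mice, and neither the interval between tamoxifen and the sort of these libraries nor whether their control mice received tamoxifen is given in the sources used here. In the study, knockout mice were given tamoxifen on consecutive days, and in other experiments its control mice were described as treated with tamoxifen too. Only knockout mice carried Cre, so that any effect of active Cre cannot be told apart from the loss of Nup358. The same holds for any effect of the drug if the control mice went without it.

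Entry into mitosis is driven by the kinase Cdk1 bound to cyclin A or cyclin B, and exit from it by the anaphase-promoting complex, a ubiquitin ligase that destroys these cyclins once the spindle checkpoint has been satisfied. Most genes of this program are transcribed together late in the cell cycle. In resting cells the DREAM complex keeps them silent, largely through a short promoter element named CHR, and in cycling cells B-Myb, FoxM1 and NF-Y, the last of which binds CCAAT boxes, drive them. Stem cells of adult marrow mostly rest while their progenitor offspring divide often, and RNA of these genes is widely used to mark the dividing cells.

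Promoter windows of 36 members were found in RefSeq for GRCm38.p6, the assembly of the mm10 build to which the reads were aligned, each running from 250 bases before to 50 bases after a transcription start. No window was found for Aurkb, Ccna2, Kif20a and Tpx2. The CHR letters TTTGAA, read on either strand, were present in 27 of the 36 members (75%) and in 20.2% of all 27025 genes with a window. CCAAT, on either strand, was present in 30 members (83.3%) and in 41.1% of all genes, and at least 2 copies of it in 22 members (61.1%) and in 13.3% of all genes. Both motifs stood together in 24 members (66.7%) and in 7.97% of all genes, and in 1 window of a member their letters overlapped. A match of letters is not a bound site, and 3 members (Birc5, Nusap1 and Mad2l1) held neither motif.

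The windows printed here show how the members differed in these letters. Ccnb2 (chr9:70421505-70421804, minus strand) and Cdk1 (chr10:69352863-69353162, minus strand) carried 2 CHR and 3 CCAAT matches each. Top2a (chr11:99024140-99024439, minus strand) carried 2 CHR and 6 CCAAT matches, Bub1 (chr2:127831810-127832109, minus strand) carried 2 CCAAT matches and no CHR match, and Mad2l1 (chr6:66534971-66535270, plus strand) carried none. Sequences run 5′ to 3′ and capitals mark every CHR and CCAAT match on either strand.
Ccnb2: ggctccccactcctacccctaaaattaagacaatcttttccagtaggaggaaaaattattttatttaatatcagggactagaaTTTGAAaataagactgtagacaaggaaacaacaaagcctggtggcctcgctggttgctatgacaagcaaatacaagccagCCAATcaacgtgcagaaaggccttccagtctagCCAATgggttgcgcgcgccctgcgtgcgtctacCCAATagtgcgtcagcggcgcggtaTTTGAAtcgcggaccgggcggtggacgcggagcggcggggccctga
Cdk1: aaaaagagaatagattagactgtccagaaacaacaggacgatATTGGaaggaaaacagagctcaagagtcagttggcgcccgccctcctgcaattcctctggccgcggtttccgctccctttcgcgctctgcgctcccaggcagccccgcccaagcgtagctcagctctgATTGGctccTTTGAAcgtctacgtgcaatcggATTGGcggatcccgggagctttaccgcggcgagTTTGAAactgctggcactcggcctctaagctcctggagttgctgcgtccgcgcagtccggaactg
Top2a: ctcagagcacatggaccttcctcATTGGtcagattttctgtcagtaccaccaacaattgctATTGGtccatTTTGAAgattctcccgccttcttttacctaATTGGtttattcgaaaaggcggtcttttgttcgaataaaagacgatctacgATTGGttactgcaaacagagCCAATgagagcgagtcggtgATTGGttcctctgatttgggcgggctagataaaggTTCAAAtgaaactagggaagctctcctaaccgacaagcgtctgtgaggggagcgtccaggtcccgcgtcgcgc
Bub1: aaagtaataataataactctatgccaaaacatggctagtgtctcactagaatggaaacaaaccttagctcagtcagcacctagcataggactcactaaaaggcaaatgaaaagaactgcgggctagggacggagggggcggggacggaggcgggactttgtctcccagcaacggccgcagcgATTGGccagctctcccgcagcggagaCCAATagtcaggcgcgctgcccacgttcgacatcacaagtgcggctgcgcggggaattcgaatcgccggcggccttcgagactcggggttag
Mad2l1: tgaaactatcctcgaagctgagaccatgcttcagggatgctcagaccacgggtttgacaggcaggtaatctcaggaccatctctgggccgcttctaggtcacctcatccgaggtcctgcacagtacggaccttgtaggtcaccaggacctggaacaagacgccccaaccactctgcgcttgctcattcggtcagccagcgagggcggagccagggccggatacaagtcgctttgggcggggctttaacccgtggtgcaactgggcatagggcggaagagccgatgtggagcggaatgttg

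The 4 libraries differed in depth and shared barcodes. Of 25242 deposited barcodes 24973 were kept, those with 200 genes or more and a mitochondrial share of 10% or less, 4233 to 9198 a library, with 25035656 to 60244814 UMIs a library and a median of 1036 to 12026 UMIs a barcode. In all, 6680 barcode sequences occurred in more than 1 library. A barcode is called copied here where another library held the same sequence with a UMI total 3 or more times as high, which was true of 10932 kept barcodes, from 811 of 4233 in knockout 2 to 5593 of 6793 in control 2. Copied barcodes held 1.61% to 24.7% of the UMIs of a library, the highest share in control 2, where the 40 genes made up 4259 CPM (UMIs of these genes scaled to a common library total) in copied barcodes and 2539 CPM in all others. In the other 3 libraries the corresponding pairs lay closer, at 4472 and 3975 CPM in control 1, 3776 and 3541 CPM in knockout 1, and 4309 and 4239 CPM in knockout 2. Results are given with and without copied barcodes. Kit, the receptor used in the sort, was at 73.5 to 96.4 CPM in All LSK sums. The counted 3′ ends lie outside the deleted part of the Nup358 gene, so that its counts do not check the genotype labels.

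With all LSK cells of a library summed, the members were detected in every library, and none passed the test between genotypes. Together they made up 3985 CPM in control 1, 2965 CPM in control 2, 3561 CPM in knockout 1 and 4240 CPM in knockout 2. Without copied barcodes the sums were 3975, 2539, 3541 and 4239 CPM in the same order. Control 2 was the lowest library in both sets, and the genotypes overlapped. In summed data fewer dividing cells and less RNA per dividing cell cannot be told apart. Levels of single genes ranged from 9.86 to 14.2 CPM for Nek2, a centrosome kinase, to 350 to 484 CPM for Top2a, the topoisomerase that untangles replicated DNA. A 3′ library takes 1 tag per RNA molecule, and these levels are therefore not divided by gene length.

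**Figure D1:**
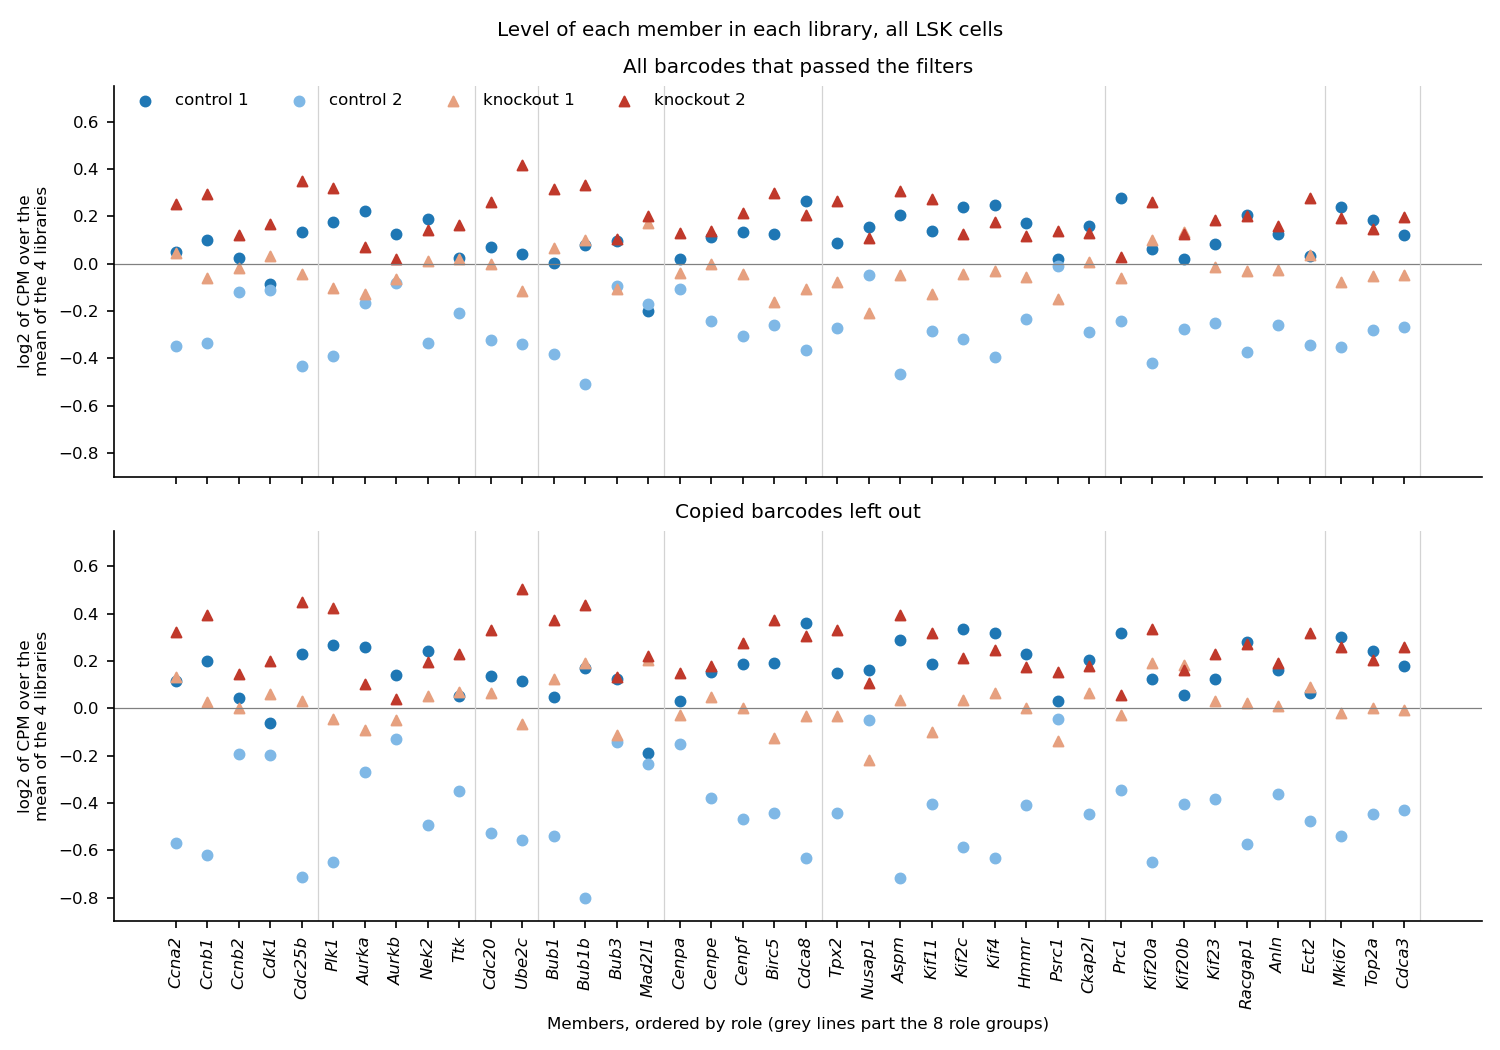
Level of each of the 40 genes in each of the 4 libraries, as log2 of its CPM over the geometric mean of its CPM in the 4 libraries. All LSK cells are summed (top), and copied barcodes are left out (bottom). Control 2 is the lowest library for 36 of the 40 genes in the top panel and for 38 in the bottom panel.

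None of the 40 members passed an adjusted p of 0.05 in either direction (edgeR quasi-likelihood test with Benjamini-Hochberg adjustment, 2 libraries against 2), where 0.91% of all 13844 genes tested were called higher and 2.09% lower in the knockout. At an unadjusted p under 0.05 the same test gave 1 member and DESeq2 gave 3, of which DESeq2 called none after adjustment. Here and below, counts at an unadjusted p are of members only, without the share of all genes, and are not read as a result. Without copied barcodes again none passed, with 1.37% of 13779 genes called higher and 2.07% lower. Fold changes were positive for 34 of the 40 members against 49.1% of all genes, with a median log2 difference of 0.14 against -0.01 over all genes, and without copied barcodes for 36 members against 49.2% of all genes, with a median of 0.23. Both knockout libraries lay above both controls for 7 members, where 26.9% of all genes did so, and below both for 0, where 27.7% did so. The positive side came with control 2, which was the lowest of the 4 libraries for 36 members against 26.8% of all genes, while knockout 2 was the highest for 26 members against 24.1%. With control 2 left out, 17 members had a positive fold change and the median was -0.05. With control 1 left out instead, all 40 were positive and 4 were called higher, Ccna2, Bub1, Bub1b and Kif20a, with 2.51% of all genes called higher. Without control 1 and without copied barcodes 28 were called higher with a median of 0.58, where 9.38% of all genes were called higher. The sign of the median thus turned without control 2, and the number of calls rose without control 1.

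Among the genes of the spindle checkpoint, which delays anaphase until all chromosomes are attached, the median log2 difference was 0.37, the highest of the 8 role groups. Mad2l1, the checkpoint protein that binds and holds back Cdc20, was at 46.1 and 47.1 CPM in the controls and at 59.6 and 60.9 CPM in the knockouts. The libraries of the 2 genotypes did not overlap, the log2 difference was 0.37 ± 0.10 (SE), and the adjusted p was 0.0964 (edgeR). Without copied barcodes Mad2l1 was at 45.8 and 44.2 CPM against 60.0 and 60.8 CPM, with a log2 difference of 0.42 ± 0.13 and an adjusted edgeR p of 0.128. With all barcodes and 1 library left out, its log2 difference was 0.36 to 0.39. Bub1, a checkpoint kinase at the kinetochore, was at 40.8 and 31.2 CPM in the controls and at 42.6 and 50.7 CPM in the knockouts (0.37 ± 0.16, edgeR adjusted p = 0.235). Bub1b, which encodes BubR1 of the mitotic checkpoint complex, was at 64.3 and 42.8 CPM against 65.2 and 76.6 CPM (0.40 ± 0.20, edgeR adjusted p = 0.284). For both genes knockout 1 stood within 2 CPM of control 1. Bub3, the partner of Bub1 and BubR1, was at 187 and 163 CPM in the controls and at 162 and 188 CPM in the knockouts, with overlapping libraries and an adjusted edgeR p of 0.997.

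The other role groups had medians from 0.09 to 0.28. Cdk1, the kinase of mitotic entry, was at 100 and 98.4 CPM in the controls and at 109 and 119 CPM in the knockouts, a gap between genotypes that came to 0.20 ± 0.11 with an adjusted edgeR p of 0.324. Ube2c, the ubiquitin-conjugating enzyme that serves the anaphase-promoting complex, was at 248, 190, 222 and 322 CPM in control 1, control 2, knockout 1 and knockout 2 (0.31 ± 0.21, edgeR adjusted p = 0.423). Here and for Birc5, which encodes survivin of the chromosomal passenger complex and was at 261, 200, 214 and 294 CPM in the same order (0.14 ± 0.19), the knockout libraries lay on either side of control 1. Tpx2, the spindle protein that activates Aurora A, was at 156, 122, 139 and 177 CPM (0.18 ± 0.17), and Kif20a, a kinesin of cytokinesis, at 32.8, 23.5, 33.7 and 37.6 CPM (0.33 ± 0.17, edgeR adjusted p = 0.302). Aurkb, the kinase of the passenger complex, was at 66.9, 58.0, 58.7 and 62.3 CPM (-0.05 ± 0.12), Prc1, which bundles microtubules of the midzone, at 142, 99.4, 112 and 120 CPM (-0.06 ± 0.17), and Top2a at 484, 350, 411 and 472 CPM (0.08 ± 0.18). In these 3 genes both knockout libraries lay between the controls, and no difference between genotypes was detectable.

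The members tracked each other within single cells to unequal degrees. Cells were thinned to 1000 UMIs each, and, without copied barcodes, cells with at least 5 UMIs of the other 39 members were set against cells with none. Ube2c was 45.5 to 81.3 times higher in the first set over the 4 libraries, and Nusap1, a protein that stabilises spindle microtubules, 20.0 to 125 times. Bub3 was 2.28 to 2.71 times higher and Mad2l1 1.59 to 7.09 times, the lowest ratios of the 40 members. For Mad2l1 the ratio was 5.12 and 7.09 in the controls and 1.59 and 2.23 in the knockouts. In cells with none of the other members Mad2l1 was at 13.1 and 14.9 CPM in the controls and at 31.4 and 31.0 CPM in the knockouts. These levels rest on 33, 9, 13 and 19 UMIs. In the first set it was at 67.3 and 106 CPM against 49.9 and 69.3 CPM, and the genotypes overlapped. Bub3 also had 478 UMIs in the cells with none of the other members, the most of any member, against 33 for Ube2c. The ratios of several members rest on few UMIs in the second set, and Nek2 had 0 there in 2 libraries.

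Cells were sorted into gates by summed marker levels, because no cell type labels came with the files. A cell entered a gate when its markers reached 10 UMIs per 10000 (40 for the neutrophil-primed gate) with at least 2 different genes, and went to the gate it exceeded most. This gave 1942 Stem-like cells (Hlf, Procr, Mecom and others), 4443 Neutrophil-primed (Elane, Prtn3, Ctsg), 642 B-lineage (Cd79a, Ebf1), 598 Monocyte and dendritic primed (Irf8, Csf1r), 393 Erythroid-primed (Car1, Klf1), 353 Megakaryocyte-primed (Pf4, Itga2b) and 281 Lymphoid-primed cells (Dntt, Il7r), while 16193 cells reached no gate and are called Ungated. Of the Stem-like cells 31.3% lay just over the minimum. Basophil and mast primed and plasmacytoid dendritic gates held fewer than 20 cells in at least 1 library and were not tested.

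The members were lower in Stem-like than in Ungated cells throughout. Without copied barcodes Stem-like cells were also shallower in every library. In control 1, control 2, knockout 1 and knockout 2 their median was 3236, 8886, 12342 and 9506 UMIs. Ungated cells had 5425, 12895, 19703 and 15366.5 UMIs. With all barcodes they were shallower in control 1 and knockout 2 only. The part of depth in the difference was not tested. Of the 40, 29 were called lower and 0 higher, with 13.4% of all 9972 genes called lower (edgeR quasi-likelihood test with the library as a block, 4 libraries). All 40 had a negative log2 difference, with a median of -0.55 against 0.04 over all genes. Aurkb was at 30.7 ± 10.8 CPM in Stem-like and 57.9 ± 4.69 CPM in Ungated cells (mean ± SD, n = 4 libraries), a log2 difference of -0.91 ± 0.18. Ccnb1, the cyclin B that brings Cdk1 to activity at mitotic entry, was at 38.3 ± 17.9 and 70.7 ± 13.7 CPM (-0.89 ± 0.18), and Hmmr, a spindle protein, at 40.6 ± 12.9 and 73.8 ± 7.52 CPM (-0.86 ± 0.16). Both members of the anaphase-promoting arm, Ube2c (-0.83 ± 0.24) and its activator subunit Cdc20 (-0.80 ± 0.18), and all 4 checkpoint genes (-0.81 for Bub1b to -0.45 for Bub3) were among those called. Not called were Cdc25b, Ttk, Cenpa, Cenpe, Cenpf, Nusap1, Aspm, Psrc1, Kif23, Ect2 and Top2a. The count was 25 without copied barcodes (11.5% of all genes), 16 when cells were thinned to 1000 UMIs before gating (1.9%), and 19 without control 1 (6.21%).

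**Figure D2:**
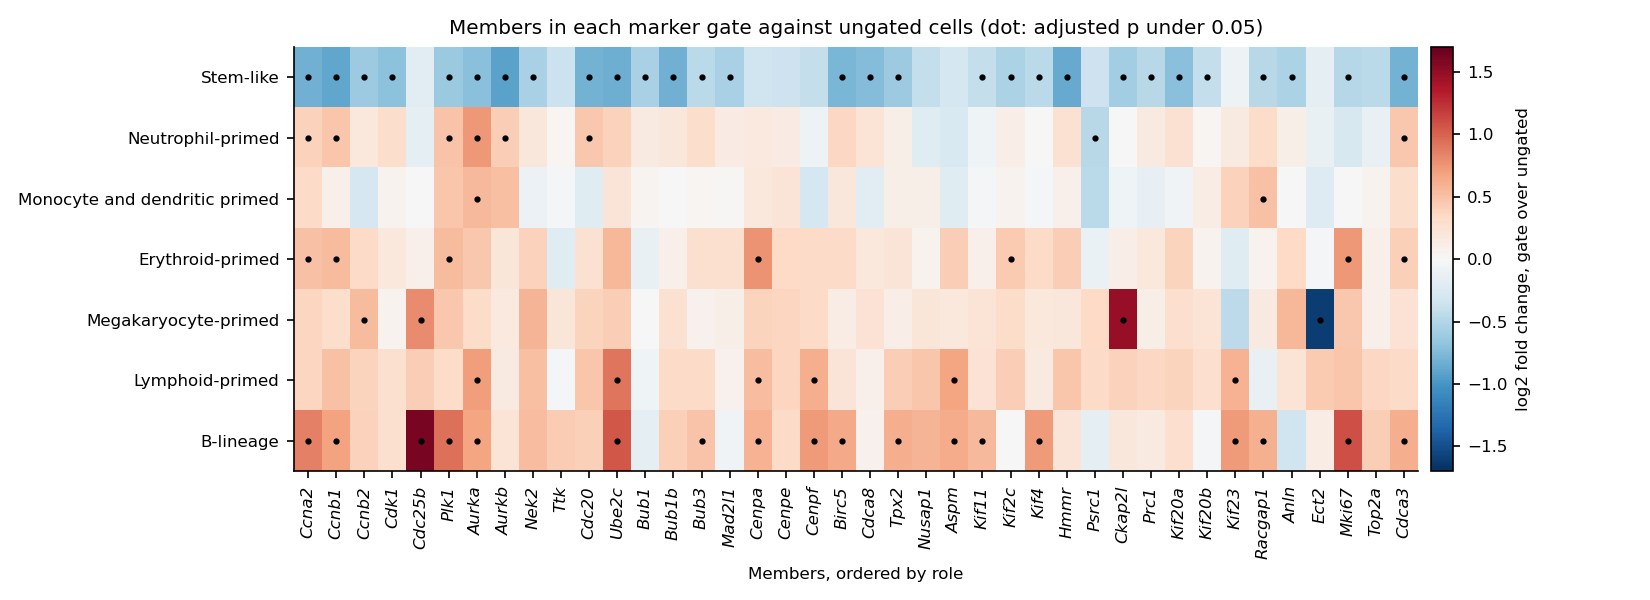
Log2 difference of each of the 40 genes in each of 7 marker gates from Ungated cells, with the library as a block. Dots mark an adjusted p under 0.05 (edgeR). The Stem-like row is negative in all 40 genes with 29 dots, and the B-lineage row holds 18 dots on the positive side.

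The 6 lineage-primed gates had 2 to 18 members called higher against Ungated cells. In B-lineage cells 18 members were higher and 0 lower, with 12.2% of all genes called higher. Cdc25b, the phosphatase that activates Cdk1, was at 45.7 ± 12.5 against 16.8 ± 3.06 CPM (1.62 ± 0.18), Mki67, which encodes the Ki-67 protein that coats mitotic chromosomes, at 443 ± 126 against 221 ± 39.4 CPM (1.10 ± 0.19), and Ube2c at 489 ± 149 against 226 ± 58.5 CPM (1.05 ± 0.26). Without knockout 2 the count was 7, with 6.92% of all genes called higher. Most B-lineage cells of the controls were copied barcodes: without these, 9 of 37 cells remained in control 1 and 5 of 121 in control 2, too few for a test. The summed level of the members in control 2 was 5983 CPM with and 3562 CPM without copied barcodes, and in knockout 1 it was 3631 CPM, near the 3583 CPM of its Ungated cells. In Erythroid-primed cells 7 members were higher, with 14% of all genes called higher, led by Cenpa, the histone H3 variant of centromeres, at 252 ± 26.1 against 147 ± 9.29 CPM (0.77 ± 0.15). In Lymphoid-primed cells 6 were higher, with 6.93% of all genes, led by Ube2c at 429 ± 145 CPM (0.90 ± 0.24). Without control 1 both counts were 2, with 7.38% of all genes called higher in Erythroid-primed and 6.28% in Lymphoid-primed cells. In the main setting the share of members called was near that of all genes in Erythroid-primed cells and above it in Lymphoid-primed cells. The Erythroid-primed count fell without copied barcodes and rose when cells were thinned before gating, settings for which no share of all genes is given.

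In Megakaryocyte-primed cells 3 members were higher, with 5.4% of all genes called higher, and 1 was lower, with 5.91% called lower. Ckap2l, a spindle protein, was at 123 ± 19.7 against 41.8 ± 4.65 CPM (1.48 ± 0.18), Cdc25b at 30.2 ± 11.3 against 16.8 ± 3.06 CPM (0.81 ± 0.20) and Ccnb2, a second cyclin B, at 138 ± 28.2 against 92.0 ± 6.88 CPM (0.54 ± 0.15). Ect2, the exchange factor that activates RhoA for cytokinesis, went the other way, at 9.55 ± 4.66 against 31.1 ± 4.19 CPM (-1.61 ± 0.33). All 4 libraries were below 15 CPM for Ect2 in this gate. Without copied barcodes 10 of 60 cells of the gate remained in control 2 and 11 of 40 in knockout 1, too few for a test. The summed level of the members in the gate in control 2 was 2524 CPM with and 1515 CPM without copied barcodes. In Neutrophil-primed cells 7 were higher, with 18.9% of all genes called higher, among them Aurka, the centrosomal Aurora kinase, at 49.5 ± 3.57 against 30.01 ± 4.24 CPM (0.74 ± 0.13), and Psrc1, a spindle protein, was lower at 13.4 ± 2.23 against 18.3 ± 1.56 CPM (-0.48 ± 0.14), with 21.7% of all genes called lower. In the Monocyte and dendritic primed gate 2 were higher, with 9.64% of all genes, Aurka (0.55 ± 0.19) and Racgap1, a subunit of the centralspindlin complex (0.50 ± 0.16), and neither passed without copied barcodes. In these 3 gates the share of members called higher was close to or below that of all genes in the main setting. The Neutrophil-primed and the Monocyte and dendritic primed counts fell without copied barcodes and rose when cells were thinned before gating. For those settings no share of all genes is given.

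**Figure D3:**
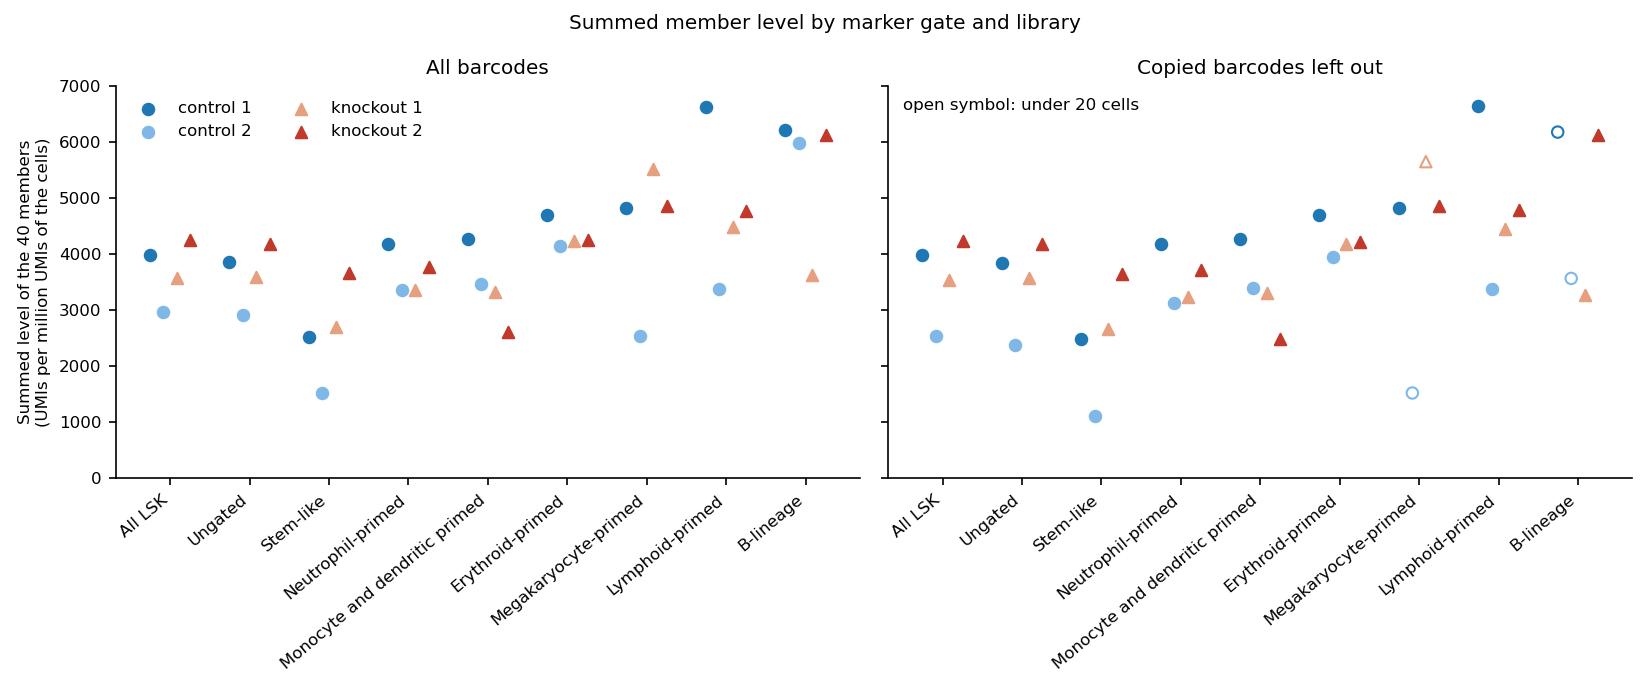
Summed CPM of the 40 genes in each marker gate and library, with all barcodes (left) and with copied barcodes left out (right). Open symbols mark gates with fewer than 20 cells in that library. Stem-like cells of the controls are at 2511 and 1520 CPM and those of the knockouts at 2699 and 3656 CPM.

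The comparison of genotypes within Stem-like cells held the most calls among the members. Their summed level was 2511 CPM in control 1, 1520 CPM in control 2, 2699 CPM in knockout 1 and 3656 CPM in knockout 2, and without copied barcodes 2474, 1097, 2665 and 3647 CPM. Both knockout libraries exceeded both controls, though knockout 1 exceeded control 1 by less than the controls differed from each other. Of the 40 members 4 were called higher and 0 lower in the knockout, with 2.51% of all 10259 genes called higher and 3.43% lower (edgeR quasi-likelihood test with Benjamini-Hochberg adjustment). All 40 log2 differences were positive against 48.5% of all genes, from 0.13 for Cenpa to 1.10 for Bub1, with a median of 0.64 against -0.01 over all genes. Both knockout libraries lay above both controls for 26 members, where 26.1% of all genes did so. Control 2 was the lowest library for 38 members, against 2872 of all 10259 genes. Knockout 2 was the highest for 39 members, against 2581 of all genes.

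Bub1 (chr2:127801122-127831865, minus strand) was at 19.6 and 20.2 CPM in the Stem-like cells of the controls and at 37.5 and 47.2 CPM in those of the knockouts. The genotypes did not overlap, and the log2 difference was 1.10 ± 0.21 with an adjusted edgeR p of 0.0139. Cdk1 (chr10:69335146-69352938, minus strand) was at 50.1 and 46.4 CPM in the controls and at 78.7 and 94.7 CPM in the knockouts, again without overlap, a log2 difference of 0.84 ± 0.17 with an adjusted edgeR p of 0.0181. Ccna2 (chr3:36564865-36572150, minus strand), the cyclin A that partners Cdk1 in G2, was at 36.2 and 26.2 CPM against 51.8 and 69.8 CPM (0.94 ± 0.22, edgeR adjusted p = 0.0293). Birc5 (chr11:117849251-117855743, plus strand) was at 121 and 89.0 CPM against 150 and 220 CPM (0.81 ± 0.20, edgeR adjusted p = 0.0395). In each of the 4 genes knockout 2 was the highest library. Gene positions are those of GENCODE on GRCm38.

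With copied barcodes left out 2 of the 4 calls held, and 1.67% of all genes were called higher. Bub1 was then at 18.0, 15.9, 36.8 and 47.6 CPM in control 1, control 2, knockout 1 and knockout 2 (1.31 ± 0.24, edgeR adjusted p = 0.0170) and Cdk1 at 49.9, 28.6, 80.1 and 94.5 CPM (1.10 ± 0.24, edgeR adjusted p = 0.0330). For Ccna2 and Birc5 the log2 difference was larger than with all barcodes, at 1.17 ± 0.31 and 1.03 ± 0.31, and the adjusted p missed the threshold at 0.0554 and 0.0788. When cells were thinned to 1000 UMIs before gating, 3 members (Bub1b, Ccna2 and Cdk1) passed with 3.29% of all genes called higher, and 36 of 40 were positive with a median of 0.37. Bub1 and Birc5 then missed the threshold, at 0.63 ± 0.25 with an adjusted p of 0.129 and 0.47 ± 0.21 with an adjusted p of 0.170. The number of calls moved with single libraries: none passed without knockout 2, 33 without control 1 (6.68% of all genes called higher), 17 without knockout 1 (1.79%) and 9 without control 2 (6.41%). With a block for library depth 26 passed (5.88% of all genes), with the replicate number as a block 10 (2.42%), and with gates of 2 times the level 0 of 14 members tested.

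Just past the threshold stood Bub1b, Top2a, Mad2l1, Kif11, Ect2 and Aurkb, with adjusted p from 0.0577 to 0.0653. Top2a was at 308 and 195 CPM in the controls and at 366 and 485 CPM in the knockouts (0.75 ± 0.21), and Ect2 at 26.3 and 9.82 CPM against 38.1 and 44.97 CPM (1.09 ± 0.31). In both genes the knockouts lay above both controls, and control 2 was the lowest library. By role the medians were 0.79 for the checkpoint, 0.74 for the mitotic kinases, 0.67 for the anaphase-promoting arm, 0.64 for the midzone and cytokinesis, 0.63 for the cyclins with Cdk1, 0.59 for the kinetochore and passenger complex, 0.48 for the spindle and its motors and 0.45 for the chromosome markers. The smallest log2 differences were those of Cenpa (0.13), Bub3 (0.15), Cdc25b (0.15) and Ccnb2 (0.16), none of which passed. Of 12 members listed here as early, from S phase into G2, 3 were called, Ccna2, Cdk1 and Birc5 (median 0.77). Of 23 listed as late 1 was called (median 0.57). The lists were drawn up for this comparison, and the time at which each gene peaks was not measured. The ratio of late to early UMIs was 1.20 and 1.08 in the controls and 1.03 and 1.06 in the knockouts. Without copied barcodes this ratio was 1.186 and 1.049 in the controls and 1.018 and 1.058 in the knockouts, and the genotypes overlapped.

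**Figure D4:**
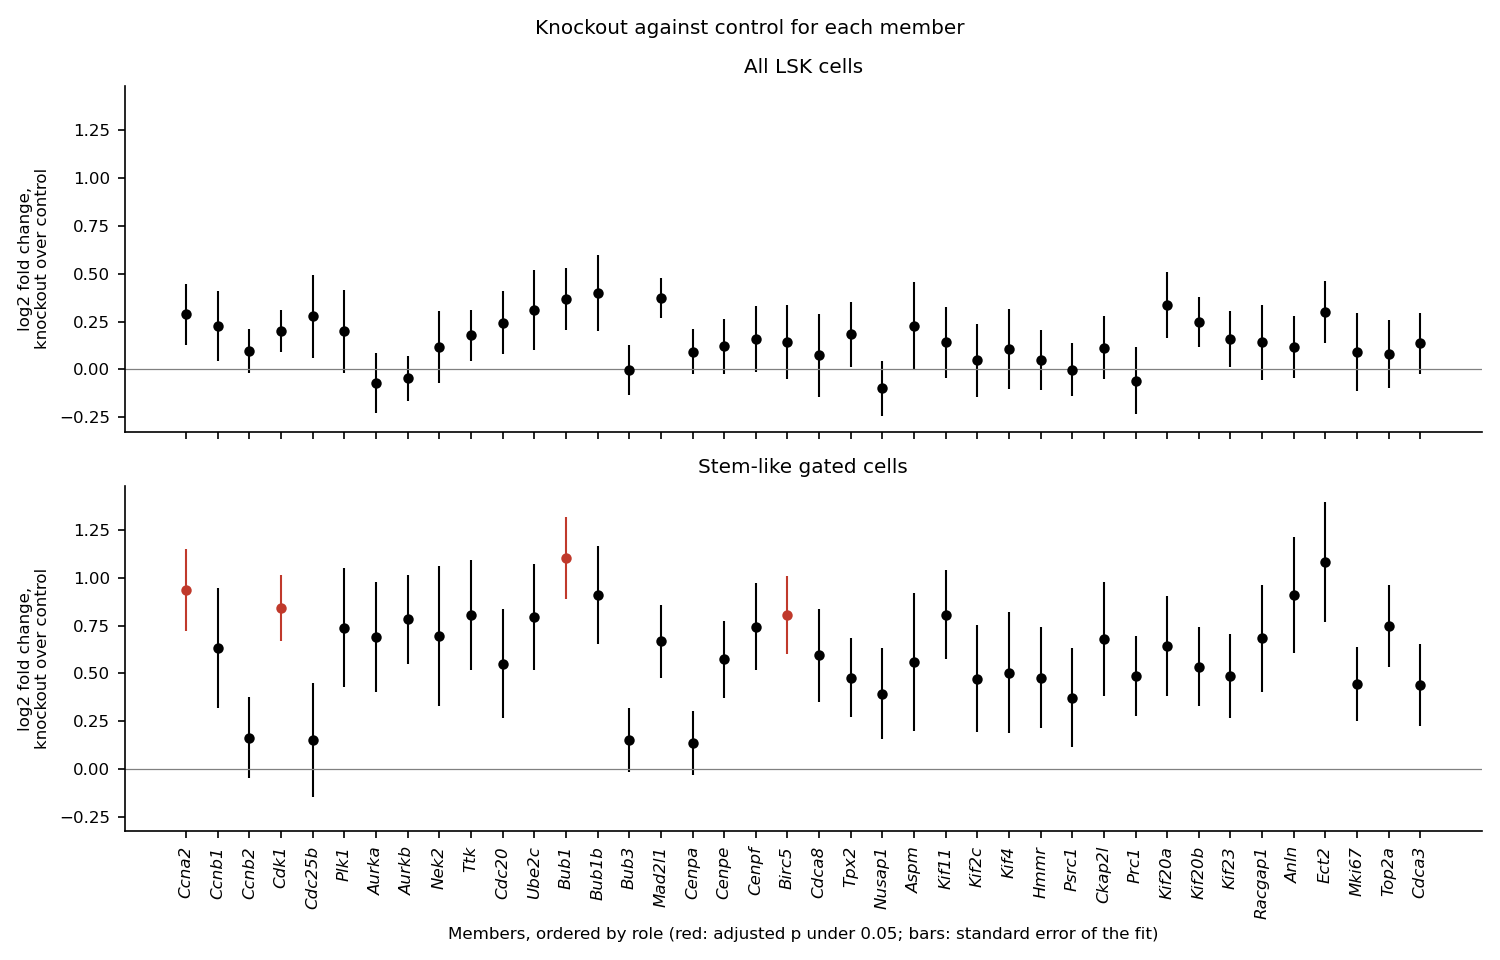
Log2 difference of knockout from control, with its SE, for each of the 40 genes in all LSK cells and in Stem-like cells. Red marks an adjusted p under 0.05 (edgeR), which Bub1, Cdk1, Ccna2 and Birc5 reach in Stem-like cells and no gene reaches in all LSK cells.

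Other genes of the cell cycle, in lists drawn up for this comparison, were counted beside the members in the same Stem-like cells. The share of all genes called higher there was 2.51%, and 1.67% without copied barcodes. Of 28 genes of the G1/S transition and DNA replication 18 were called higher and 0 lower, 12 without copied barcodes and 11 without knockout 2, with a median log2 difference of 0.84. Hells, a chromatin remodeler, was at 50.9 and 48.0 CPM in the controls and at 136 and 112 CPM in the knockouts (1.31 ± 0.17, edgeR adjusted p = 0.00167). Ccne2, a cyclin E of S-phase entry, was at 5.36 and 9.82 CPM against 25.4 and 24.5 CPM (1.82 ± 0.31), and Mcm2, a subunit of the replicative helicase, at 61.7 and 44.8 CPM against 121 and 112 CPM (1.10 ± 0.18). None of these 3 genes overlapped between genotypes. Of 51 further mitotic genes tested 11 were called higher, 8 without copied barcodes, 35 without control 1 and 2 without knockout 2, with a median of 0.62. Ckap2, a spindle protein, was at 13.4 and 10.9 CPM in the controls and at 36.0 and 32.9 CPM in the knockouts (1.46 ± 0.23, edgeR adjusted p = 0.00626). Of 18 genes of the DREAM, B-Myb and FoxM1 regulators 1 was called, Mybl2, which encodes B-Myb, at 9.12 and 8.19 CPM against 26.4 and 33.3 CPM (1.77 ± 0.26, edgeR adjusted p = 0.0038). Of 16 brakes and exit genes 1 was called, Chek1, the replication checkpoint kinase (1.13 ± 0.28, edgeR adjusted p = 0.0352), a call lost without copied barcodes and without knockout 2, and the median was -0.07. A list of 15 genes held subunits of the anaphase-promoting complex and Ube2s, a ubiquitin-conjugating enzyme that serves it. Of these 11 had a positive log2 difference and the median was 0.16.

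Whether the difference between genotypes was larger in Stem-like than in Ungated cells was tested as an interaction. No member passed, with 0.0401% of 9972 genes called higher and 0 genes called lower. At an unadjusted p under 0.05 there were 16 members, a count given without the share of all genes at that limit. The interaction term was positive for 39 of 40 members with a median of 0.45, which came to 0.45 without copied barcodes and to 0.13 when cells were thinned before gating. The members with the smallest p were Kif11, the motor that separates spindle poles (0.75 ± 0.20, edgeR adjusted p = 0.152), Ect2 (0.82 ± 0.24) and Bub1 (0.69 ± 0.21, both edgeR adjusted p = 0.211).

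Marker levels also differed between the libraries of the Stem-like gate. The 9 stem markers that define it summed to 1525 and 1605 CPM in the controls and to 1430 and 1323 CPM in the knockouts, and Kit was at 166 and 166 CPM against 144 and 122 CPM. Neutrophil-primed markers summed to 972 and 478 CPM in the controls and to 414 and 217 CPM in the knockouts, and those of mature erythroid cells to 129 and 283 CPM against 392.4 and 410 CPM. Median UMIs of a Stem-like cell were 3153 and 1985 in the controls and 2617 and 8627 in the knockouts, with knockout 1 between the controls. Their part in the result was not tested.

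In Ungated cells 1 member was called higher and 0 lower, with 2.39% of all 13022 genes called higher and 4.96% lower. Mad2l1 was at 44.5 and 47.1 CPM in the controls and at 61.9 and 63.4 CPM in the knockouts (0.45 ± 0.11, edgeR adjusted p = 0.0425), without overlap. Its log2 difference was 0.56 without copied barcodes, where the adjusted edgeR p was 0.0640. With 1 library left out it was 0.42 to 0.49, and the call for Mad2l1 was lost without knockout 1 and without knockout 2. Of the other members 36 had a positive log2 difference, and the median of all 40 was 0.21, or 0.34 without copied barcodes. The calls again moved with single libraries, to 22 without control 1, with 5.23% of all genes called higher, and to 0 without knockout 2. Of the cell cycle brakes, Cdkn1b, which encodes the Cdk inhibitor p27, was at 76.1 and 70.5 CPM in the controls and at 47.1 and 45.4 CPM in the knockouts (-0.67 ± 0.11, edgeR adjusted p = 0.0179). Of the 16 genes of that list 2 were called lower, Cdkn1b and Cdkn2c, and 1 higher, Cdkn1c, another Cdk inhibitor gene, with a median of -0.07. With 1 library left out, the log2 difference was 0.62 to 0.90 for Cdkn1c and -1.03 to -0.67 for Cdkn2c. Neither call held without knockout 2, and the call for Cdkn1c was also lost without knockout 1. The call for Cdkn1b held without copied barcodes (-0.81 ± 0.13, edgeR adjusted p = 0.0345) and was lost without knockout 1 (edgeR adjusted p = 0.0680) and without knockout 2 (edgeR adjusted p = 0.0858).

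In the lineage-primed gates few members differed between genotypes. Many cells of these gates were copied barcodes. Without these, 2120 of 2255 Neutrophil-primed cells remained in control 1, 168 of 1376 in control 2, 79 of 552 in knockout 1 and 69 of 260 in knockout 2. Of Erythroid-primed cells 148 of 165, 21 of 99, 25 of 66 and 49 of 63 remained in the same order. In Neutrophil-primed cells, with 0.363% of 10182 genes called higher and 0.599% lower, 0 members were called and 15 of 40 were positive, with a median of -0.04 and 3 at an unadjusted p under 0.05. With control 1 left out 1 member was called higher and 3 lower, where 3.59% of all genes were called higher and 6.01% lower. As an interaction against Ungated cells the median was -0.24 with 0 calls, where 0.0201% of all genes were called lower and 3 members were at an unadjusted p under 0.05. When cells were thinned before gating 5 members were called lower, with 1.53% of all genes, and where copied barcodes were left out as well 16 were, with 3.02% of all genes. In Erythroid-primed cells 0 of 40 were called (background 0.21% higher and 0.894% lower, median -0.10, 2 at an unadjusted p under 0.05), and in Lymphoid-primed cells 0 of 40 (background 0.183% and 0.209%, median 0.04, 1 unadjusted), where leaving out control 2 gave 3 calls lower, with 0.61% of all genes. In B-lineage cells 0 of 37 tested were called (background 0% in both directions, median -0.17, 0 unadjusted). In Megakaryocyte-primed cells 0 of 39 tested were called (background 0.0576% and 0.446%, median 0.29, 4 unadjusted), although both knockout libraries lay above both controls for 18 members against 18.2% of all genes, and leaving out control 1 gave 2 calls higher among 36 tested, with 0.0814% of all genes.

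The Monocyte and dendritic primed gate was the one with a member called lower. Of 37 members tested 1 was lower and 0 higher, with 1.18% of 6553 genes called lower and 4.06% higher, and the median log2 difference was -0.46 with 3 members positive. Prc1 (chr7:80294450-80316259, plus strand) was at 162 and 103 CPM in the controls and at 67.2 and 56.8 CPM in the knockouts (-1.12 ± 0.30, edgeR adjusted p = 0.0376). Both knockouts lay below both controls, and the call was lost without control 1, without knockout 2, when cells were thinned before gating, and with DESeq2. As an interaction against Ungated cells 5 members were called lower, with 3.08% of all genes called lower. They were Cdk1 (-1.06 ± 0.26), Prc1 (-1.11 ± 0.34), Ccnb1 (-1.20 ± 0.38), Aurkb (-1.03 ± 0.33) and Ccnb2 (-0.96 ± 0.30), with adjusted edgeR p from 0.00812 to 0.0478.

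Markers of other cell types in this gate differed with genotype. In Monocyte and dendritic primed cells the 5 plasmacytoid dendritic markers summed to 12.6 and 20.3 CPM in the controls, with 3 of them detected in each, and to 760 and 1295 CPM in the knockouts, with all 5 detected. The 3 genes of the plasma cell list (Jchain, Mzb1 and Xbp1) summed to 52.9 and 154 CPM against 4997 and 3225 CPM, and Ly6a, which encodes Sca1, was at 133 and 235 CPM against 958 and 1237 CPM. The gate held 350 and 115 cells in the controls and 66 and 67 in the knockouts. Without copied barcodes it held 345 and 23 cells in the controls and 40 and 50 in the knockouts. Cells of the separate plasmacytoid dendritic gate had few member UMIs, summing to 285 CPM in knockout 1 and 576 CPM in knockout 2. The part of this difference in cell make-up in the lower member levels was not tested.

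Cells rich in RNA of the 40 members were also counted, and are called mitotic here for short. Some members peak from S phase into G2, so that such cells need not be in mitosis. A cell was called mitotic when it held at least 5 UMIs of the 40 members after thinning to 1000 UMIs, a step that left out 1071, 3238, 2191 and 591 shallower cells of control 1, control 2, knockout 1 and knockout 2. Of all LSK cells 28.9%, 33.0%, 26.2% and 34.0% were mitotic in that order. With copied barcodes left out the shares were 28.2%, 13.8%, 22.1% and 33.1%, and before thinning they were 57.4%, 42.5%, 47.1% and 74.1%. The share of control 2 was the lowest of the 4 once copied barcodes, of which 42.7% were mitotic in that library, were removed. The limit lay in a continuous range, with 1463 cells at 4 UMIs and 1231 at 5 of 17882 cells. As a reference for cells that should rarely divide, cells with Ms4a1 and Cd79a UMIs and no UMI of Kit, Vpreb1 or Igll1 were taken as mature B cells. Of these 16 of 169 were mitotic (9.47%, exact Clopper-Pearson 95% interval 5.51% to 14.9%). Their median was 1986 UMIs against 6813 UMIs in all LSK cells. At that depth a missing UMI does not show that a gene is silent, so that dividing B-cell precursors may be among them. Of 25 plasmacytoid dendritic cells 0 were mitotic, which allows a share of up to 12% when 3 counts are taken as the limit and up to 13.7% by the exact interval. Intervals cover counting error only.

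**Figure D5:**
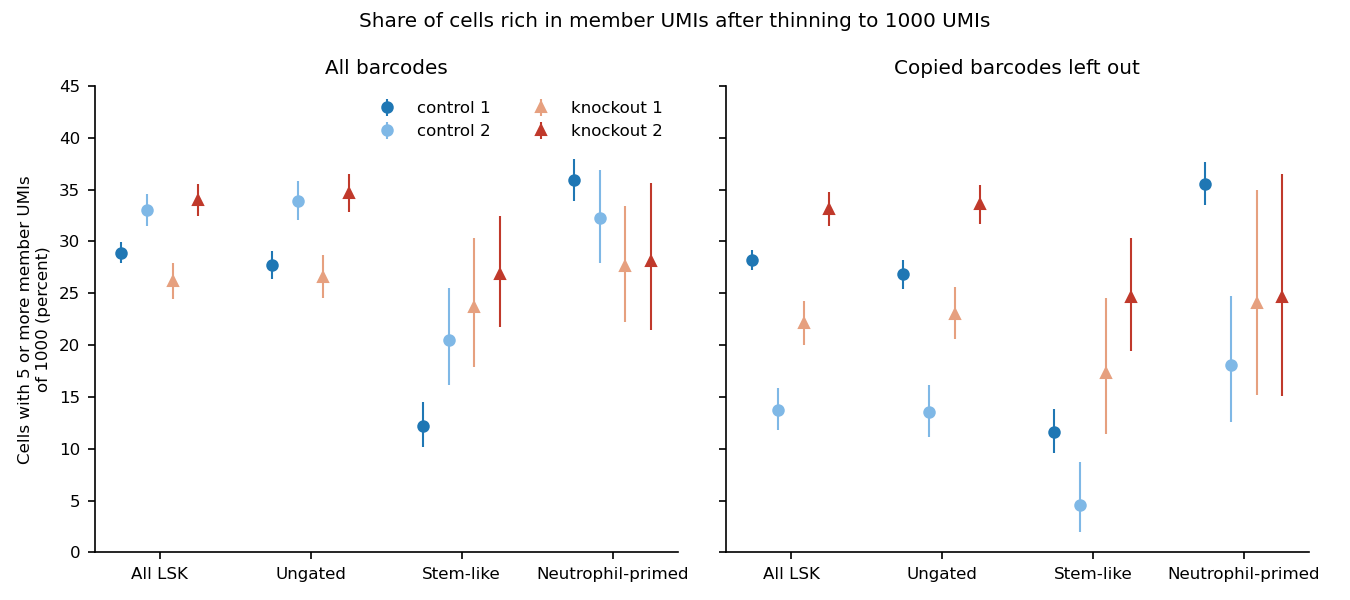
Percent of cells with at least 5 UMIs of the 40 genes among 1000, by library, in all LSK, Ungated, Stem-like and Neutrophil-primed cells, with all barcodes and with copied barcodes left out. Bars are exact 95% intervals and cover counting error only. In Stem-like cells the controls are at 12.2% and 20.5% and the knockouts at 23.7% and 26.9%.

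Among Stem-like cells 12.2% (interval 10.2% to 14.5%) and 20.5% (16.1% to 25.5%) were mitotic in the controls and 23.7% (17.9% to 30.3%) and 26.9% (21.8% to 32.5%) in the knockouts. Without copied barcodes the shares were 11.6% and 4.55% in the controls and 17.3% and 24.6% in the knockouts. The genotypes did not overlap in either set, but their intervals did: those of control 2 overlapped both knockouts with all barcodes, and those of control 1 and knockout 1 overlapped without copied barcodes. The mean of the knockouts exceeded that of the controls by 8.91 percentage points (pooled SD 4.44), or 12.9 points without copied barcodes, and by 5.56 points when cells were gated after thinning. With at least 10 UMIs as the limit the difference was 0.271 points. In Ungated cells the shares were 27.8% and 33.9% in the controls and 26.5% and 34.7% in the knockouts, a difference of -0.217 points that became 8.16 points without copied barcodes. In Neutrophil-primed cells they were 35.9% and 32.3% in the controls and 27.6% and 28.1% in the knockouts, and 35.6%, 18.1%, 24.1% and 24.6% without copied barcodes, where the genotypes overlapped. No test was run on these shares.

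Member RNA also followed the depth of a cell in every library. Among barcodes that were not copied, the fifth of cells with the fewest UMIs had 666 CPM of members in control 1, 624 CPM in control 2, 1824 CPM in knockout 1 and 1969 CPM in knockout 2, and the fifth with the most had 4849, 4139, 4419 and 4890 CPM. Barcodes whose sequence had a copy in another library were the deeper ones, at a median of 13783 UMIs in control 2 against 7319 UMIs for those without a copy, and held 2637 CPM of members there against 832 CPM. The corresponding levels were 4793 and 3316 CPM in control 1, 3672 and 1553 CPM in knockout 1 and 4451 and 1835 CPM in knockout 2.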

How the data were processed

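Single-cell RNA was counted in 4 LSK libraries, 2 control and 2 knockout, each pooled from 3 mice. The deposited matrices hold raw UMI counts per gene and barcode, made by the authors and, per the submitters' processing notes, with Cell Ranger 3.1 on mm10. Groups were taken from the labels, and 0 per-sample columns were left unused. Kept barcodes had 200 genes or more and a mitochondrial share of 10% or less, and totals per library were 25035656 to 60244814 UMIs. Cell gates were rebuilt from marker lists and are not the authors' cell types. Doublets were not removed. Cells in more than 1 gate were left out as an alternative for all LSK cells only, not in any fit of gates. Such cells were 287 of 598 Monocyte and dendritic primed, 947 of 4443 Neutrophil-primed, 186 of 642 B-lineage and 15 of 1942 Stem-like cells.

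UMIs were summed per library, and per gate where every library held at least 20 cells, and tested over all genes with the quasi-likelihood test of edgeR 4.0.16 (R 4.3.3) after TMM scaling and filterByExpr, with Benjamini-Hochberg adjustment and a threshold of 0.05. CPM of a gene are on the scaled library sizes of the fit they belong to and differ slightly between fits, while summed CPM are on unscaled totals. DESeq2 1.42.0 was an alternative. Scripts for tests were checked on simulated data. P-values of knockout against control measure only the spread between 2 pooled libraries a genotype. Tests of gates against Ungated cells and of the interaction were fitted on the sums of all tested gates and libraries together. Their p-values measure the spread of these sums within libraries, pooled over the gates.

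The members and lists were chosen with earlier results of these data known. Named were members past the threshold in all LSK cells, with or without copied barcodes, or else the 3 with the smallest p in each of these fits and the most abundant of each role, and from other lists at most 5 past the threshold with the smallest p. Members named in single gates were those called there or chosen after their values were seen. Shares of cells were taken after thinning to 1000 UMIs with exact Clopper-Pearson 95% intervals.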

Additional observations from a re-analysis of the deposited data

Results flagged for a closer look

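The results here were picked out because the difference between genotypes in a gate departed from that in Ungated cells by the interaction test (edgeR quasi-likelihood test, adjusted over 9972 genes). In the Monocyte and dendritic primed gate the log2 difference between knockout and control was smaller than in Ungated cells by -1.06 for Cdk1, by -1.11 for Prc1, by -0.96 for Ccnb2, by -1.20 for Ccnb1 and by -1.03 for Aurkb. Rrm1, a subunit of ribonucleotide reductase from the G1/S list, differed there by -0.69. In Erythroid-primed cells Ccne1, a cyclin E, differed by -1.67. In Stem-like cells 3 genes of the G1/S list departed upward, Ung, a uracil glycosylase, by 1.61, Mcm5, a subunit of the replicative helicase, by 0.93 and Gins2, a subunit of the replication fork complex, by 0.96, and no member of the 40 did.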

How the results depend on the processing

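Counts are of members called by edgeR unless stated, and the share of all genes called is not repeated here. That share also moved with the setting. In Stem-like cells 2.51% of all genes were called higher in the main fit, 1.67% without copied barcodes and 5.88% with the depth block. Counts without such a share cannot tell a change in the members from a change in calls over all genes. For knockout against control, all LSK cells gave 0 higher, 1 without a filter on low counts, and 0 to 4 with a library left out. With copied barcodes left out these cells gave 28 without control 1, 1 without a filter and 1 with a library depth block. Stem-like cells gave 4 higher, 2 without copied barcodes, 0 with a gate of 2 times the level, 26 with the depth block, 20 without a filter, and 0 to 33 with a library left out. Ungated cells gave 1 higher, 5 with DESeq2, 11 with the depth block, 10 without a filter, 0 without copied barcodes, with a gate of 2 times the level, with a minimum of 500 genes and in thinned cells without copied barcodes, and 0 to 22 with a library left out. Megakaryocyte-primed cells gave 0 higher, 1 with the depth block, 1 without a filter, and 0 to 2 with a library left out. Neutrophil-primed cells gave 0 in both directions, 1 lower with the depth block, 1 lower without a filter, and 0 to 1 higher and 0 to 3 lower with a library left out. Lymphoid-primed cells gave 0 to 3 lower with a library left out. Monocyte and dendritic primed cells gave 1 lower, 0 with DESeq2 and after thinning, 3 with a gate of 2 times the level, 2 with the depth block, 2 without a filter, and 0 to 6 with a library left out.

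For the interaction with genotype, Monocyte and dendritic primed cells gave 5 lower, 1 with RLE size factors, 8 without copied barcodes, 9 with a minimum of 500 genes, 14 without a filter and 3 after thinning. Neutrophil-primed cells gave 0 lower, 2 without a filter, 5 after thinning and 16 after thinning without copied barcodes. Stem-like cells gave 0 higher, 1 with a minimum of 500 genes and 2 without a filter, and B-lineage and Erythroid-primed cells 1 lower each without a filter.

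Against Ungated cells, Stem-like cells gave 29 lower, 16 after thinning, 14 after thinning without copied barcodes, and 19 at the lowest with a library left out. B-lineage cells gave 18 higher and 7 at the lowest with a library left out. Erythroid-primed cells gave 7 higher, 4 without copied barcodes, 3 with a gate of 2 times the level, 18 after thinning, 2 at the lowest with a library left out, and 1 lower with a gate of 2 times the level. Lymphoid-primed cells gave 6 higher, 11 without a filter and 2 at the lowest with a library left out. Megakaryocyte-primed cells gave 3 higher and 1 with a gate of 2 times the level. Monocyte and dendritic primed cells gave 2 higher, 1 with RLE, 0 without copied barcodes, 1 with a minimum of 500 genes, 5 after thinning (with 1 lower) and 0 at the lowest with a library left out. Neutrophil-primed cells gave 7 higher, 4 without copied barcodes, 11 without a filter, 13 after thinning, 18 after thinning without copied barcodes, and 1 at the lowest with a library left out, and their 1 lower was 0 after thinning with or without copied barcodes and 0 at the lowest with a library left out.

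The difference in mitotic share was -0.877 points in all LSK cells, 6.62 without copied barcodes, 10.6 without thinning, 13.7 at 2000 UMIs, and -4.80 to 3.04 with a library left out. In Ungated cells it was -0.217, 5.40 with at least 3 UMIs, 8.16 without copied barcodes, 17.9 without thinning, 17.6 at 2000 UMIs, 9.63 gated after thinning without copied barcodes, and -4.29 to 3.86 with a library left out. In Stem-like cells it was 8.91, 0.271 with at least 10 UMIs, 22.9 without thinning, 19.1 at 2000 UMIs, and 4.77 to 13.1 with a library left out.

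The labels number the replicates and do not say whether libraries of the same number were handled together. Deviations of same-numbered libraries correlated at -0.0375 over 13844 genes and at -0.346 over the 40 members. With 2 libraries a genotype that differ in depth, this cannot decide whether they were paired. With the replicate number as a block, 10 members were called in Stem-like cells, 1 in Megakaryocyte-primed and 1 in Ungated cells, and 0 in all LSK cells.

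The cause of these changes was not tested. Settings that join the removal of copied barcodes in all LSK cells with another choice, thinning or a gate of 2 times the level in the interaction, thinning without copied barcodes, gates set after thinning for shares, and libraries left out for the other lists were chosen after seeing the data. Removal of copied barcodes gave no value for Megakaryocyte-primed and B-lineage cells, nor thinning for these and Lymphoid-primed cells, for want of 20 cells in each library. With 2 libraries a genotype, 1 library decided many counts.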
